A study of Mus musculus with 12 samples.

Results

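Described here are 10 genes that serve neutrophils and inflammatory monocytes: the formyl peptide receptors Fpr1 and Fpr2, the chemokine receptors Cxcr2 and Ccr2, the growth factor receptor Csf3r, the chemokines Cxcl1 and Cxcl2, the cytokine Il1b and the calcium-binding proteins S100a8 and S100a9. They were chosen by symbol, and each was read from its probe set with the highest mean over 12 liver arrays among probe sets that carry a single gene symbol. Such a probe set was found for 9 of the 10, and Fpr1 is not analysed here. All 9 passed the filter on dim probe sets, which left 12760 of 18193 genes with a single-symbol probe set for testing.

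The arrays measured total liver RNA of BALB/c mice in 4 groups of 3 mice. The WT group is the Balb/c wild-type control, the TGFB KO group lacks Tgfb1 (transforming growth factor beta 1), the INFko TGFB+ group lacks Ifng (interferon gamma) and keeps Tgfb1, and the IFNko TGFB1 KO group lacks both. The series concerns acute autoimmune hepatitis of Tgfb1-deficient mice and sets double knockouts and Tgfb1-positive littermates beside them. Neither the age of the mice nor the number of intact Tgfb1 alleles in the INFko TGFB+ group is stated in the labels, and the knockouts are not described as restricted to a cell type.

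Neutrophils and inflammatory monocytes are short-lived cells of the bone marrow that enter the liver from blood. Formyl peptides from bacteria and damaged mitochondria act on the formyl peptide receptors, CXCL1 and CXCL2 draw neutrophils through CXCR2, and CCR2 lets inflammatory monocytes leave the marrow toward CCL2 and related chemokines. G-CSF acts through CSF3R to drive neutrophil production, IL-1 beta is released mainly by activated myeloid cells, and S100A8 and S100A9 pair as calprotectin, an abundant protein of the neutrophil cytosol. In whole liver, fewer cells of a type and less RNA per cell cannot be told apart.

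Several of these genes are chromosomal neighbours. In the RefSeq annotation of GRCm38.p6 no gene starts between S100a8 and S100a9 on chromosome 3, between Cxcl1 and Cxcl2 on chromosome 5, or between Fpr1 and Fpr2 on chromosome 17. The 250 bases before the start of Cxcl1, Cxcl2 and Fpr2 are printed. The adjacent chemokines differed in their values between the knockout groups, as described below, and Fpr2 had among the largest Tgfb1 differences of the 9 genes. Il1b had a like difference with Ifng intact (log2 fold change 3.71, against 3.74 for Fpr2). Its window is not printed and held neither of the motifs marked here. All are RefSeq sequences of GRCm38.p6 on the + strand, at chr5:90890995-90891244, chr5:90903649-90903898 and chr17:17887574-17887823. Capitals mark GGAATTTCC, a kappaB-type motif, in the chemokines and a match to TTCNNNGAA, the spacing of a gamma-activated site, in Fpr2.
Cxcl1: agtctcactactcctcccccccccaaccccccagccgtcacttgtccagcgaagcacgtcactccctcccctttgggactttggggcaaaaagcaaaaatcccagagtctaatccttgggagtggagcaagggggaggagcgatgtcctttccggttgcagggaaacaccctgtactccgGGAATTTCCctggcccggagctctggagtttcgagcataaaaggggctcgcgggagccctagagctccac
Cxcl2: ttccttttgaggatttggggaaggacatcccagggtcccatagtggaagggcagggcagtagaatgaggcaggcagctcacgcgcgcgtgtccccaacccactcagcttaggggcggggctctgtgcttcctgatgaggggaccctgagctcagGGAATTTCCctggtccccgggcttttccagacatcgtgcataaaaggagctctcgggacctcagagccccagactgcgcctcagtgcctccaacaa
Fpr2: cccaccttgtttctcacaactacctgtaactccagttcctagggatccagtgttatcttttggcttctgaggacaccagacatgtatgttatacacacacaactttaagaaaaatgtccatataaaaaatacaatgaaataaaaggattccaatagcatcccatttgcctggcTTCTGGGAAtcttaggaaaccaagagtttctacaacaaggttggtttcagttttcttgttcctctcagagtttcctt
The kappaB-type motif ended 62 bases before the start of Cxcl1 and 88 bases before that of Cxcl2. It was found on either strand in 94 of 32536 promoter windows of this length (0.289%), and among the 10 genes in these 2. The TTCNNNGAA match TTCTGGGAA lay 77 to 69 bases before the start of Fpr2, and that motif was found in 7.04% of all windows. No other of the 10 windows held either motif as written. GGAATTTCC was searched as a fixed string, whereas TTCNNNGAA has free positions, so their shares of all windows are not comparable. Other kappaB-type sequences were not searched. TATAAA was found in the windows of Fpr1, Fpr2, Il1b and S100a8 (12.3% of all windows), TTNNGCAA, a C/EBP-type motif, in that of S100a9 (9.57%), and GAAANNGAA, an interferon-stimulated-response-type motif, in that of Ccr2 (7.15%). Both strands were searched, and no match overlapped that of another motif. These matches are of letters only and were not tested as sites.

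Tgfb1 itself was measured at a mean signal of 319 ± 184 (SD, n = 3) in WT, 68.1 ± 21.2 in TGFB KO, 188 ± 29.5 in INFko TGFB+ and 40.2 ± 13.9 in IFNko TGFB1 KO. It fell in both Tgfb1 comparisons (adjusted p = 0.0105 and 0.00557). The WT arrays were uneven, at 391, 455 and 110. WT 3 thus lay below every INFko TGFB+ array (163 to 221) and nearer to the highest TGFB KO array (87.6). Ifng had means of 18.4 ± 10.8, 127 ± 64.5, 5.36 ± 3.72 and 60.9 ± 20.5 in the order of groups given for Tgfb1. The IFNko TGFB1 KO arrays thus held more Ifng signal than the WT arrays. Whether its probe set lies outside the deleted stretch is unknown here, so it does not check the Ifng labels, which are used as given. One array, IFNko TGFB1 KO 1, differed from the rest. Its median signal was 61.3, against 33.8 to 42.6 on the other 11 arrays, and its rank correlations with them were 0.754 to 0.809, where the other 11 correlated with each other at 0.816 to 0.912.

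Markers of several immune cell types were higher with Tgfb1 loss. The summed signal of 6 neutrophil markers outside the 10 genes (Mpo, Elane, Camp, Ngp, Ltf and Mmp8) was 2167 to 4729 in WT, 4406 to 12119 in TGFB KO, 3129 to 4944 in INFko TGFB+ and 5641 to 19907 in IFNko TGFB1 KO, so that the first pair of groups overlapped and the second did not. Of these 6, Elane, Camp, Ngp and Ltf were not called in TGFB KO against WT, and Elane and Ltf were not called in IFNko TGFB1 KO against INFko TGFB+. Mpo and Elane were also listed as markers of early myeloid precursors, with Prtn3, Ctsg and Ms4a3. Those 5 summed to 452 to 1127 in WT and 2142 to 5079 in TGFB KO. In INFko TGFB+ they summed to 770 to 1074.5 and in IFNko TGFB1 KO to 1818 to 6389. Of 3 monocyte markers outside the 10 genes (F13a1, Plac8 and Chil3) the sum was 623 to 803, 3270 to 5828, 619 to 776 and 2059 to 3642 in the same order. The defining markers Ly6g, Ly6c1 and Ly6c2 are not analysed here. The 7 Kupffer cell markers summed to 2895 to 4107, 21034 to 22748, 2944 to 3356 and 17034 to 24381, and the 7 T cell markers to 175 to 207, 810 to 1097, 112 to 200 and 2105 to 4041. With Ifng intact and without it, 6 and 7 of the 7 Kupffer cell markers and 7 of the 7 T cell markers were called higher. Of all genes tested, 12.2% and 12.7% were called higher in these comparisons. In the same order, 0 and 1 of 4 B and plasma cell markers were called higher, with medians of -0.24 and 0.68. NK cell markers were called higher in 2 of 2 in either comparison, and erythroid markers in 1 and 0 of 2. Hepatocyte markers, over 9 genes, summed to 153460 to 162030 in WT, 106910 to 133820 in TGFB KO, 141800 to 171230 in INFko TGFB+ and 76440 to 134280 in IFNko TGFB1 KO, and each Tgfb1-deficient group was below its Tgfb1-positive counterpart without overlap. Singly, however, only 1 and 3 of the 9 were called lower with Ifng intact and without it (11.9% and 13.1% of all genes). None of the 9 was called higher. The part of these cell types in the results below was not tested.

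**Figure D1:**
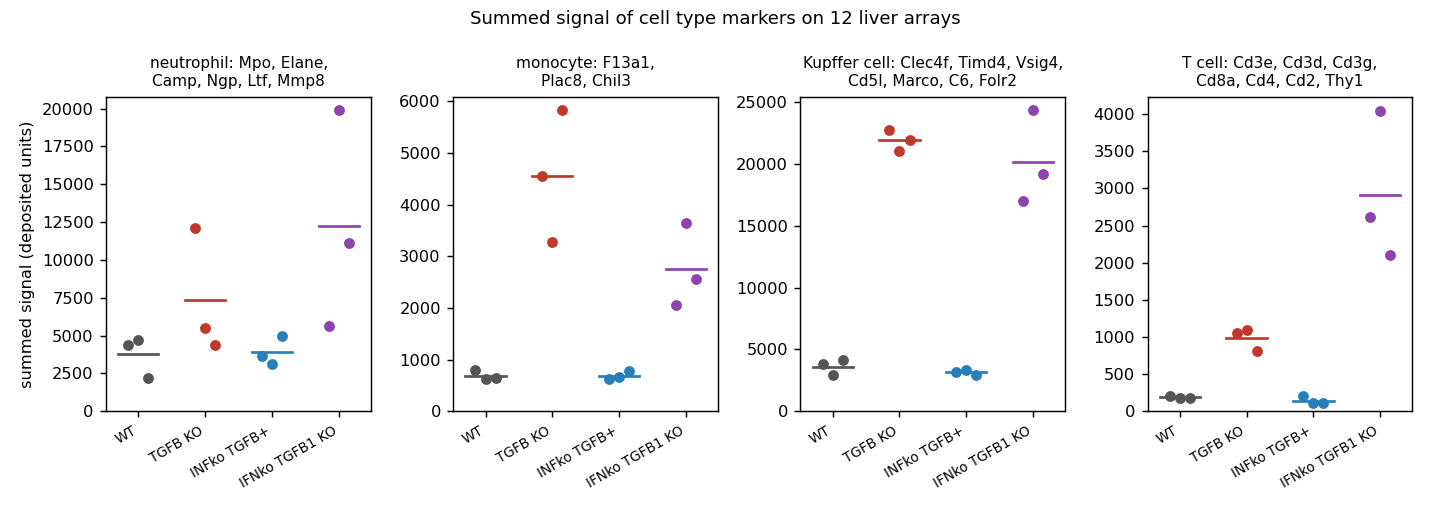
Summed signal of cell type markers (vertical axis, deposited units from 0) on each of 12 arrays by group; points are arrays and lines are group means. The neutrophil sum spans 4406 to 12119 in TGFB KO and 5641 to 19907 in IFNko TGFB1 KO, and the T cell sum is highest in IFNko TGFB1 KO.

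All 9 genes rose with loss of Tgfb1 where Ifng was intact. Of the 9, 9 were called higher in TGFB KO than in WT at an adjusted p under 0.05, where 12.2% of all genes tested were called higher, and their signals did not overlap between the groups, as for 19.1% of all genes. Their median log2 fold change was 1.92, against -0.06 over all genes tested. Where the mice lacked Ifng, 6 of the 9 were called higher in IFNko TGFB1 KO than in INFko TGFB+ (12.7% of all genes), with a median of 1.84 against -0.01, and the signals of 7 did not overlap (24.9% of all genes). Below, log2 fold changes are of signal + 16 after quantile normalization, with the standard error after ±, from limma with Benjamini-Hochberg adjustment over 12760 genes. The p-values rest on a spread between mice that is pooled for each gene over the 4 groups of 3 mice and moderated over all genes tested.

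**Figure D2:**
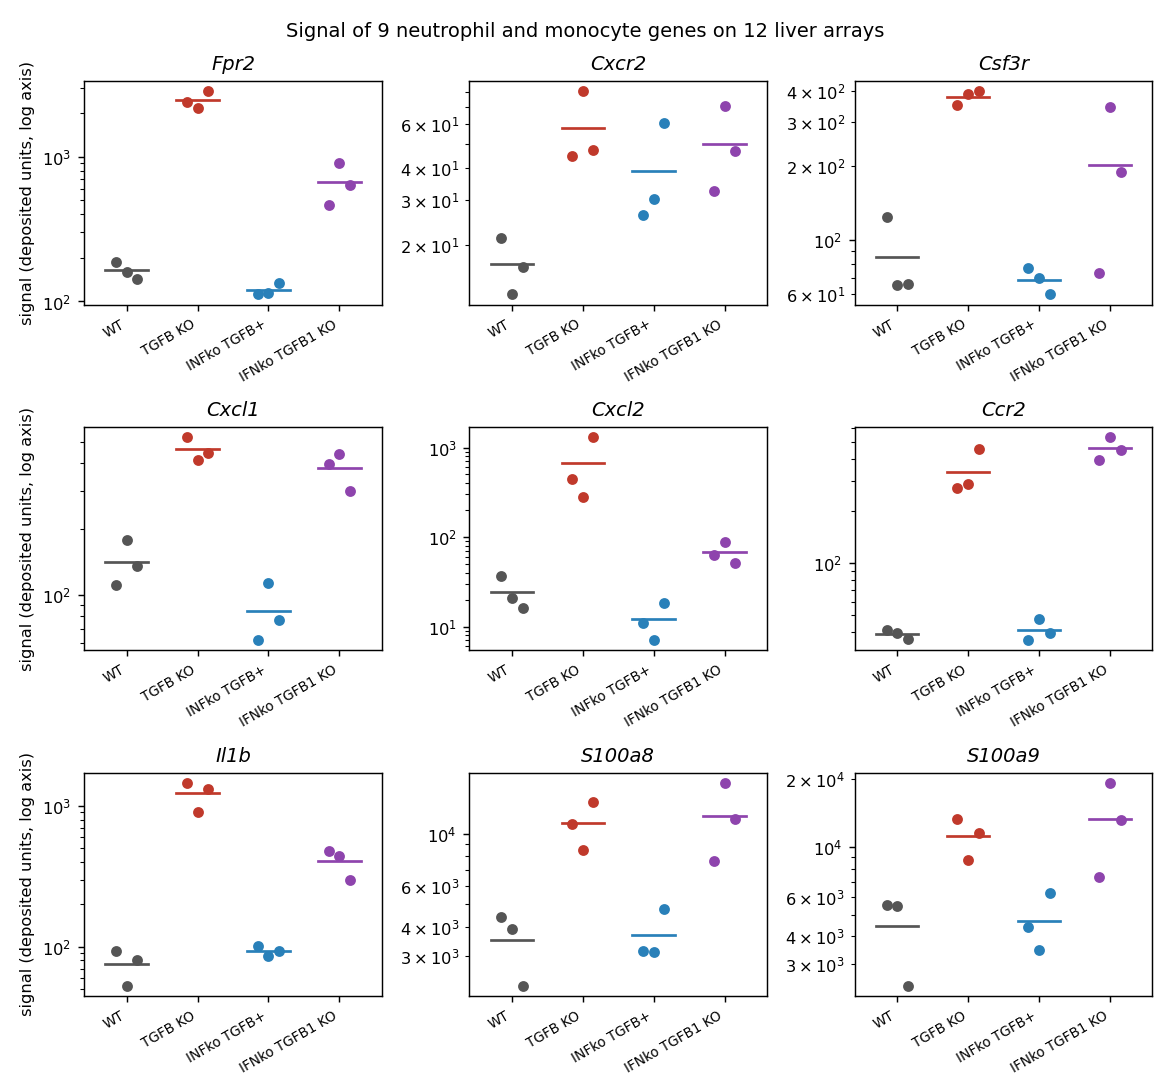
Deposited signal (vertical axes, log scale, a range of its own for each gene) of the 9 genes on 12 liver arrays; points are arrays and lines are group means. All 3 TGFB KO arrays lie above all 3 WT arrays for each of the 9 genes, whereas Fpr2, Il1b, Cxcl2 and Csf3r lie lower on every IFNko TGFB1 KO array than on any TGFB KO array.

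Fpr2, which binds formyl peptides and several host ligands on phagocytes, was read from its 1 probe set. The Fpr2 signal was 188, 160 and 142 on WT arrays 1, 2 and 3, and 2394, 2173 and 2838 on the TGFB KO arrays. With Ifng absent it was 112, 115 and 135 in INFko TGFB+ and 463, 910 and 643 in IFNko TGFB1 KO. The 4 groups did not overlap, in the order INFko TGFB+, WT, IFNko TGFB1 KO and TGFB KO. The rise with Tgfb1 loss was 3.74 ± 0.22 with Ifng intact (13.3-fold, adjusted p = 1.73e-06) and 2.27 ± 0.22 without it (4.84-fold, adjusted p = 5.34e-05). The difference of these effects was -1.46 ± 0.30 (adjusted p = 0.0529), just short of the threshold. It was called under 4 alternative settings (adjusted p 0.00978 to 0.0414) and without the array IFNko TGFB1 KO 2 (-1.70, adjusted p = 0.00967). Of its relatives, Fpr-rs3 and Fpr-rs4 lay below the filter, with signals of at most 24.6 and 51.0 on any array.

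Cxcr2, the neutrophil receptor for CXCL1 and CXCL2, rose with Tgfb1 loss where Ifng was intact. The Cxcr2 signal was 21.3, 12.7 and 16.4 in WT and 44.9, 80.7 and 47.2 in TGFB KO. It was 26.1, 30.3 and 60.7 in INFko TGFB+ and 32.5, 70.3 and 46.9 in IFNko TGFB1 KO. WT stood below the other 3 groups, which overlapped with their neighbours in the order of means INFko TGFB+, IFNko TGFB1 KO and TGFB KO. Cxcr2 rose by 1.22 ± 0.31 with Ifng intact (adjusted p = 0.0154), a call lost without WT 2 (adjusted p = 0.0526) or TGFB KO 2 (adjusted p = 0.0632). With Ifng absent the value was 0.026 ± 0.31 (95% interval -0.66 to 0.71, adjusted p = 0.961), and its sign changed when single arrays were left out. The difference of effects was -1.19 ± 0.44 and was not called (adjusted p = 0.313).

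Csf3r, the receptor for G-CSF, had the widest spread within a group of the 9 genes, an SD of 1.24 on the log2 scale in IFNko TGFB1 KO. The Csf3r signal was 124, 65.5 and 66.3 in WT and a narrow 352, 389 and 401 in TGFB KO. It was 76.4, 69.8 and 59.9 in INFko TGFB+, but 73.1, 344 and 188 in IFNko TGFB1 KO. The low value there is that of IFNko TGFB1 KO 1, the array with the low rank correlations, which lay within the INFko TGFB+ range. The order of means was INFko TGFB+, WT, IFNko TGFB1 KO and TGFB KO, and only the last step was without overlap. Csf3r rose by 1.92 ± 0.47 with Ifng intact (adjusted p = 0.0117). Without Ifng the value was 0.89 ± 0.47 (adjusted p = 0.193), and without IFNko TGFB1 KO 1 it was 1.57 (adjusted p = 0.00273).

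Ccr2, the receptor by which inflammatory monocytes follow CCL2, rose on either background. The Ccr2 signal was 41.1, 39.5 and 36.4 in WT and 271, 285 and 457 in TGFB KO. It was 35.9, 47.9 and 39.4 in INFko TGFB+ and 395, 535 and 451 in IFNko TGFB1 KO. The Tgfb1-positive groups overlapped with each other, as did the Tgfb1-deficient ones, and the 2 levels were apart. The rise was 2.64 ± 0.20 (6.21-fold, adjusted p = 7.41e-06) with Ifng intact and 2.99 ± 0.20 (7.96-fold, adjusted p = 7.00e-06) without it, and the difference of 0.36 had a 95% interval of -0.27 to 0.99. Ccr2 has 4 probe sets, fitted together with all other probe sets, and each was higher with Tgfb1 loss in both comparisons. In that fit 1 of them was not called with Ifng intact (0.41, adjusted p = 0.658) and another was not called without it (1.01, adjusted p = 0.105).

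The chemokine genes parted between the knockouts. The Cxcl1 signal was 111, 178 and 136 in WT and 528, 412 and 448 in TGFB KO. It was 62.0, 113 and 76.6 in INFko TGFB+ and 398, 441 and 298 in IFNko TGFB1 KO. The knockouts of Tgfb1 overlapped with each other and stood above both Tgfb1-positive groups. Cxcl1 rose by 1.53 ± 0.24 (2.90-fold, adjusted p = 0.000891) with Ifng intact and by 1.95 ± 0.24 (3.87-fold, adjusted p = 0.000257) without it. Cxcl1 has 3 probe sets, and the other two disagreed. One was not called in either comparison (0.20 with an adjusted p of 0.659, and 0.15 with one of 0.759), whereas the other was called in both (1.60 and 1.70).

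Cxcl2, the neighbour of Cxcl1 with the same kappaB-type motif, attracts neutrophils likewise. The Cxcl2 signal was 36.7, 20.9 and 16.2 in WT and 442, 278 and 1311 in TGFB KO. It was 11.1, 7.04 and 18.5 in INFko TGFB+ and 63.8, 88.4 and 50.9 in IFNko TGFB1 KO. TGFB KO was the highest group, IFNko TGFB1 KO came next without overlap with any other, and the Tgfb1-positive groups overlapped. Cxcl2 rose by 3.84 ± 0.45 with Ifng intact (14.3-fold, adjusted p = 0.000128). Without Ifng the value was 1.31 ± 0.45 (adjusted p = 0.0527), and 7 of the alternative settings called it (adjusted p 0.0185 to 0.0495). The difference of effects, -2.53 ± 0.64, was not called (adjusted p = 0.114) but was without TGFB KO 2 (-3.00, adjusted p = 0.0487) and with a pseudocount of 64 (-2.17, adjusted p = 0.0489).

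Il1b encodes the precursor of IL-1 beta, an inflammatory cytokine. The Il1b signal was 93.1, 52.6 and 80.9 in WT and 1462, 910 and 1317 in TGFB KO. It was 102, 86.2 and 93.3 in INFko TGFB+ and 481, 443 and 299 in IFNko TGFB1 KO. Again TGFB KO was highest, IFNko TGFB1 KO was intermediate without overlap, and the Tgfb1-positive groups overlapped. Il1b rose by 3.71 ± 0.26 with Ifng intact (13.1-fold, adjusted p = 4.24e-06) and by 1.89 ± 0.26 without it (3.70-fold, adjusted p = 0.000446). The difference of effects was -1.82 ± 0.36 (95% interval -2.61 to -1.03, adjusted p = 0.0421), and Il1b was the 1 gene of the 9 for which it was called, where 0.627% of all genes were called lower. That call was lost on leaving out any 1 of 10 of the 12 arrays (adjusted p up to 0.126, difference -2.03 to -1.60 over all 12) and held without TGFB KO 2 or IFNko TGFB1 KO 1. It was also lost with a pseudocount of 1 (adjusted p = 0.0824) or no filter (0.0686).

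The calprotectin genes S100a8 and S100a9 encode the 2 chains of one complex and had like values in every comparison. The S100a8 signal was 4421, 3912 and 2240 in WT, 11054, 8558 and 13645 in TGFB KO, 3164, 3124 and 4773 in INFko TGFB+ and 7651, 16495 and 11504 in IFNko TGFB1 KO. The S100a9 signal was 5493, 5446 and 2405 in WT, 13309, 8707 and 11546 in TGFB KO, 4383, 3474 and 6225 in INFko TGFB+ and 7305, 19252 and 13132 in IFNko TGFB1 KO. For both genes every Tgfb1-deficient array was above every Tgfb1-positive one, and the deficient groups overlapped, as did the positive ones. S100a8 rose by 1.73 ± 0.35 (3.33-fold, adjusted p = 0.00390) with Ifng intact and by 1.84 ± 0.35 (3.59-fold, adjusted p = 0.00273) without it. The rises of S100a9 were 1.42 ± 0.43 (2.68-fold, adjusted p = 0.0325) and 1.64 ± 0.43 (3.12-fold, adjusted p = 0.0155). The first was lost without WT 3 (adjusted p = 0.111), TGFB KO 1 (0.107), TGFB KO 2 (0.0515) or TGFB KO 3 (0.0740), and the second without INFko TGFB+ 2 (0.0660) or IFNko TGFB1 KO 2 (0.0611) and under median centring of the arrays (0.0605). The differences of effects were 0.11 for S100a8 and 0.22 for S100a9, with intervals of -0.96 to 1.18 and -1.11 to 1.55, and both changed sign under median centring (-0.35 and -0.29).

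**Figure D3:**
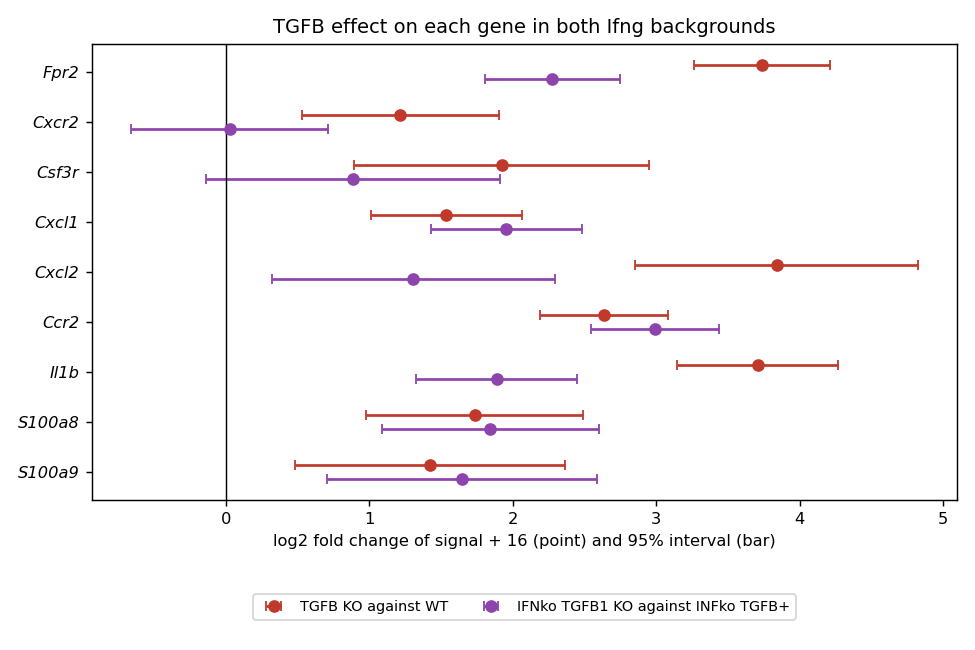
Log2 fold change of signal + 16 on loss of Tgfb1 (horizontal axis, point) with its 95% interval (bar) for the 9 genes, in mice with Ifng (TGFB KO against WT, red) and without it (IFNko TGFB1 KO against INFko TGFB+, purple). The bars of Fpr2, Il1b and Cxcl2 do not overlap between the colours, whereas those of Ccr2, Cxcl1, S100a8 and S100a9 do.

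The IFNko TGFB1 KO and TGFB KO groups both lack Tgfb1 and were compared directly, a comparison that shares its arrays with those above. Of the 9 genes, 3 were called lower in IFNko TGFB1 KO (2.82% of all genes) and none higher (2.54%), and the signals of 4 were lower without overlap (8.53%). Fpr2 fell by 1.86 ± 0.22 (adjusted p = 0.000530), Cxcl2 by 2.95 ± 0.45 (adjusted p = 0.00325) and Il1b by 1.52 ± 0.26 (adjusted p = 0.00581, or 0.0545 with only these 6 arrays in the fit). Csf3r was the other gene without overlap, at -1.25 ± 0.47 (adjusted p = 0.157), and it was called without IFNko TGFB1 KO 2 (-1.78, adjusted p = 0.0346), whereas without IFNko TGFB1 KO 1 it was -0.56 (adjusted p = 0.314). Ccr2 had a value of 0.50 ± 0.20 (adjusted p = 0.186) and was called without TGFB KO 3 (0.73, adjusted p = 0.0449). Of the rest, Cxcl1 was at -0.24 (95% interval -0.77 to 0.28), Cxcr2 at -0.36 (-1.05 to 0.32), S100a8 at 0.17 (-0.59 to 0.92) and S100a9 at 0.29 (-0.65 to 1.23), and median centring turned the last pair to -0.16 and -0.057.

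**Figure D4:**
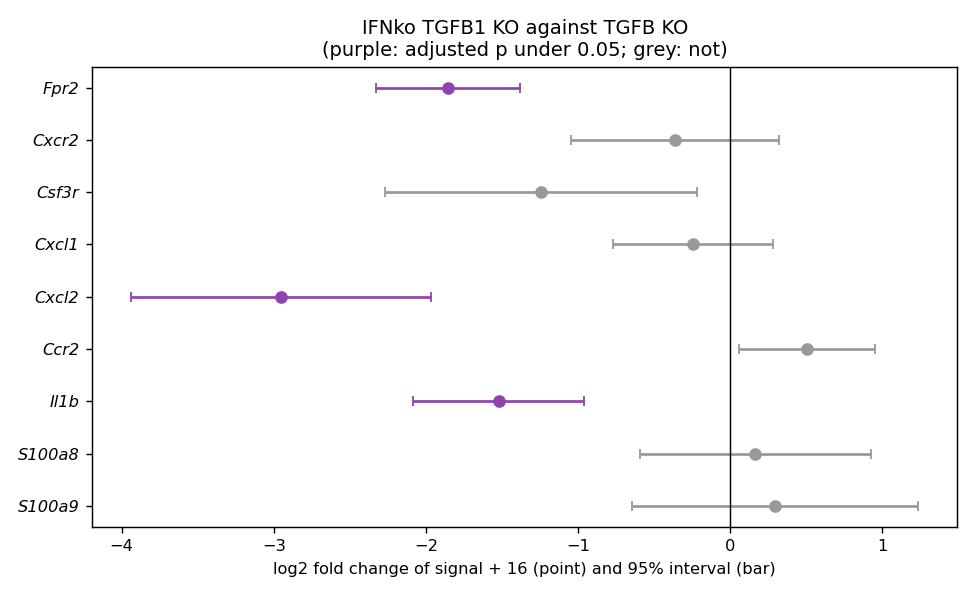
Log2 fold change of signal + 16 in IFNko TGFB1 KO against TGFB KO (horizontal axis, point) with its 95% interval (bar) for the 9 genes. Purple marks the genes called at an adjusted p under 0.05, Fpr2, Cxcl2 and Il1b, all lower, and grey marks the other 6.

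With Tgfb1 intact, none of the 9 genes was called between INFko TGFB+ and WT, and limma called none of the 12760 genes (0%). At an unadjusted p under 0.05 there were 2 of the 9 and 650 of all genes. Those 2 were Cxcl1, at -0.66 ± 0.24, and Cxcr2, at 0.83 ± 0.31, the latter higher without overlap of signals, as were 6.34% of all genes. Fpr2 was lower without overlap (-0.39), as were 7.09% of all genes.

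Further genes of these pathways were counted from lists. Over all genes tested, 12.2% were called higher and 11.9% lower in TGFB KO than in WT. The shares were 12.7% and 13.1% in IFNko TGFB1 KO against INFko TGFB+. In IFNko TGFB1 KO against TGFB KO they were 2.54% and 2.82%, and in the difference of effects 0.243% and 0.627%. Among neutrophil granule proteins 13 of 18 tested were called higher in TGFB KO than in WT and 16 of 18 in IFNko TGFB1 KO than in INFko TGFB+, with none lower and medians of 1.89 and 2.06. Lcn2, which binds bacterial iron carriers, rose by 4.23 and 3.56, and Lyz2, a lysozyme also of macrophages, by 2.32 and 3.08. Itgb2, the beta chain of leukocyte integrins, rose by 2.70 and 3.07. Camp and Ngp, proteins of the specific granules, were at 0.48 and 0.89 with Ifng intact, where they were not called, and rose by 1.78 and 1.52 without it. Elane (1.11), Ltf (0.29) and Chil3 (1.11) were the others not called with Ifng intact, and Elane and Ltf were called in neither comparison. The list is not restricted to genes of neutrophils alone. The difference of effects was called for none of the 18. None of the 18 was called between IFNko TGFB1 KO and TGFB KO.

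Surface and signalling genes of neutrophils were called higher in 18 of 23 with Ifng intact, with a median of 2.54. The count was 15 of 23 without Ifng, or 20 of 23 without IFNko TGFB1 KO 1, with a median of 1.84. This list, too, is not restricted to genes of neutrophils alone. Fcgr4, an activating receptor for IgG, rose by 4.69 and 1.94, Fcgr3 by 3.53 and 2.77, and Csf2rb, the shared chain of the GM-CSF and IL-3 receptors, by 3.72 and 3.24. Fcgr4 (-3.27), Ccrl2 (-2.08) and Clec4e (-1.24) were the 3 called lower in IFNko TGFB1 KO than in TGFB KO, and 2 of 23 were called without IFNko TGFB1 KO 1. The difference of effects was called for Fcgr4 (-2.75, adjusted p = 0.0174) and Ccrl2 (-2.71, adjusted p = 0.00960), and that of Fcgr4 was lost without TGFB KO 1, INFko TGFB+ 2 or INFko TGFB+ 3 (adjusted p 0.0519 to 0.0629).

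The ligands of CCR2 and other monocyte chemokines were called higher in 6 of 6 in either comparison, with medians of 2.75 and 2.34. Ccl2 rose by 3.61 and 2.81, Ccl7 by 2.02 and 0.99, Ccl8 by 3.16 and 4.63, Ccl12 by 1.49 and 1.81, Ccl3 by 3.86 and 3.59 and Ccl4 by 2.33 and 1.88. Single arrays ended the call of Ccl12 with Ifng intact (without WT 1, WT 2, TGFB KO 1 or TGFB KO 2, adjusted p 0.0601 to 0.0679) and of Ccl7 without it (without INFko TGFB+ 1, INFko TGFB+ 3 or IFNko TGFB1 KO 2, adjusted p 0.0644 to 0.113). None of the 6 was called between the Tgfb1-deficient groups, and Cx3cl1 lay below the filter.

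Among neutrophil chemoattractants and their regulators 3 of 7 were called higher and 1 lower with Ifng intact, and 3 of 7 higher without it, with medians of 0.95 and 0.86. Cxcl3, a further CXCR2 ligand, rose by 2.34 with Ifng intact, had a value of 0.76 without it (adjusted p = 0.131), and was lower in IFNko TGFB1 KO than in TGFB KO by 1.68 on the log2 scale (adjusted p = 0.0175), a call lost without TGFB KO 1, TGFB KO 3 or IFNko TGFB1 KO 1. Anxa1, which encodes a ligand of FPR2, rose by 1.07 and 1.98, the first call being lost without WT 2, WT 3, TGFB KO 1 or TGFB KO 3 (adjusted p 0.0629 to 0.114), under median centring (0.0521) and with no filter (0.0539). Il17ra, a receptor for IL-17A, rose by 1.17 and 0.92, calls lost with the mean of all its probe sets (adjusted p = 0.121 and 0.502). Cxcl12, which retains neutrophils in marrow, fell by 1.86 with Ifng intact and was at -0.59 without it (adjusted p = 0.122). It was called higher in IFNko TGFB1 KO than in TGFB KO (1.03, adjusted p = 0.0444), a call lost in 12 of the alternative settings, among them the fits without any 1 of TGFB KO 1, 2 and 3 and IFNko TGFB1 KO 1 and 2 (adjusted p 0.0932 to 0.131). With the mean of all Cxcl12 probe sets the value was only 0.057 (adjusted p = 0.922). Pf4, a platelet chemokine, rose by 2.12 without Ifng and was at 0.95 with it, and Ppbp and Il17a were called in neither comparison. Cxcl5, Cxcl15 and Csf3 lay below the filter.

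Monocyte markers were called higher in 9 of 13 and 11 of 13, with 1 lower in the first, Cx3cr1 (-1.10, adjusted p = 0.0480). The list is not restricted to genes of inflammatory monocytes alone. The medians were 2.12 and 1.77. Csf1r, the receptor for M-CSF, rose by 2.12 and 1.87 and Plac8 by 2.75 and 2.03. Irf8, a transcription factor of monocyte development that interferon gamma induces, rose by 3.43 and 1.48 and was the 1 marker called lower in IFNko TGFB1 KO than in TGFB KO (-1.97, adjusted p = 0.000266). Its difference of effects was also called (-1.95, adjusted p = 0.00963).

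Genes of IL-1 production and response were called higher in 14 of 17 and 13 of 17, with Il1rap, a receptor chain, lower in both and medians of 1.84 and 1.17. Casp1, which cleaves the IL-1 beta precursor, rose by 2.77 and 1.66, and Il1rn, the receptor antagonist, by 2.89 and 1.91. Il1rn (-1.07), Myd88 (-0.82), Nlrp3 (-1.33) and Ptgs2 (-2.34) were the 4 called lower in IFNko TGFB1 KO than in TGFB KO, and without IFNko TGFB1 KO 1 only 1 of the 17 was. Leaving out any 1 of the 3 IFNko TGFB1 KO arrays ended the call of Il1rn (adjusted p 0.0504 to 0.0789).

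Of genes related to calprotectin 4 of 7 were called higher and 1 lower, S100a16 (-0.57, adjusted p = 0.0414), with Ifng intact, and 5 of 7 higher without it, with medians of 1.66 and 1.14. Tlr4, a receptor for calprotectin, rose by 1.66 and 1.14, S100a10 by 2.14 and 2.16 and S100a4 by 3.26 and 5.30. The call of Tlr4 without Ifng was lost with the mean of all its probe sets (0.66, adjusted p = 0.0515). S100a4, found in many leukocytes, was higher in IFNko TGFB1 KO than in TGFB KO by 2.21 (adjusted p = 0.0176), a call lost without TGFB KO 1 or TGFB KO 3. Of the granulopoiesis factors Cebpb, Cebpd and Spi1 were called higher and Cebpa lower in both Tgfb1 comparisons, 3 and 1 of 6, with medians of 1.28 and 1.05. The call of Cebpb without Ifng was lost under median centring (0.62, adjusted p = 0.151). Cebpb, which drives granulopoiesis in emergencies, was called lower in IFNko TGFB1 KO than in TGFB KO (-0.86, adjusted p = 0.0273), a call lost without any 1 of the TGFB KO arrays or IFNko TGFB1 KO 1 (adjusted p 0.0741 to 0.0783).

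Likeness of pattern was measured as the root mean square difference between centred log2 levels over the 12 arrays. In the search for nearest genes, predicted and clone names among the genes tested were passed over. The closest pair among the 9 genes was S100a8 and S100a9, at 0.219, and each was the other's nearest of the genes searched, followed by Stfa2l1 for S100a8 (0.240) and Tnfrsf18 for S100a9 (0.296). Fpr2 and Il1b were 0.444 apart, S100a8 and Cxcl1 0.543 and Fpr2 and Cxcl2 0.603. Nearest to Fpr2 were Ctla2b (0.234) and Pfkp (0.275), to Il1b Hilpda (0.297) and Basp1 (0.308), to Cxcl1 Asb2 (0.242) and Osmr (0.263), and to Ccr2 Cd48 (0.262) and Ms4a6b (0.263). Cxcl2 had the most distant nearest genes, Hcar2 (0.441) and Gbp8 (0.526). Those of Cxcr2 were Usp11 (0.292) and Krt7 (0.294), and those of Csf3r were Pram1 (0.323) and Esm1 (0.384).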

How the data were processed

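Liver RNA of 12 mice was measured on 12 arrays. Per the labels' protocols, the authors extracted it with Trizol and used one-cycle biotin labelling. The deposited values are linear signal intensity for 45101 probe sets, and the signal algorithm is not given in the sources used here. After trimming 2 percent at each end, every array has a mean of 150. Of the probe sets 34958 carry a single symbol, 932 several and 9211 none in the platform annotation, and 34754 single symbols were updated through the gene ID with RefSeq (GRCm38.p6). The 64 control probe sets were left out.

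Signals were taken to log2 after adding 16 and quantile normalized. Probe sets with a mean under the 40th percentile (log2 level 5.25) were left out. The 5 comparisons were fitted with limma 3.58.1 in R 4.3.3 on all 12 arrays (8 residual and 3.44 prior degrees of freedom), two-sided, and the code was tested on simulated data. Adding 16 shrinks the fold changes of dim genes, and 3 mice a group limit the precision. Named are the members, Tgfb1 and Ifng, all chemoattractants, CCR2 ligands and formyl peptide receptors with a probe set, up to 3 genes of each other list with the smallest p in the Tgfb1 comparisons, and the 2 nearest genes of each member. Mpo, Mmp8, F13a1, Camp, Ngp, Elane, Ltf, Chil3, Prtn3, Ctsg, Ms4a3, Ccrl2, Clec4e, Cx3cr1, Il1rap, Nlrp3, Ptgs2, S100a16 and Cebpa fall outside this rule and were named after their values were seen. The members and lists were chosen with earlier results of these data known. Alternatives changed the scaling, pseudocount, filter, probe set, spread, a replicate block and single arrays. The labels of INFko TGFB+ number arrays 2 and 3, and the unnumbered array was taken as 1.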

Additional observations from a re-analysis of the deposited data

Results flagged for a closer look

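The effect of Tgfb1 loss on Il1b differed between mice with and without Ifng by the test of the difference itself. It was -1.82 on the log2 scale (95% interval -2.61 to -1.03, limma adjusted p = 0.0421), from a rise of 3.71 with Ifng intact and of 1.89 without it. The call was lost in 12 of 21 alternative settings, which were 10 of the 12 fits with 1 array left out (adjusted p up to 0.126), a pseudocount of 1 (0.0824) and no filter (0.0686). All 3 IFNko TGFB1 KO arrays (299 to 481) lay below all 3 TGFB KO arrays (910 to 1462), and all 3 lay above the INFko TGFB+ arrays (86.2 to 102).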

How the results depend on the processing

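Of 760 recomputed values of the 9 genes, 698 kept their direction and side of the threshold, 23 lost their call, 17 gained one and 22 changed sign. Median centring moved the median of all genes by over 0.1 in 3 comparisons (to -0.15 from -0.01 for IFNko TGFB1 KO against INFko TGFB+, to -0.25 from 0.01 for the difference of effects, to -0.14 from 0.02 for IFNko TGFB1 KO against TGFB KO). It gave 1448 genes higher and 893 lower in TGFB KO against WT (1553 and 1524 as reported), 988 and 1864 in IFNko TGFB1 KO against INFko TGFB+ (1618 and 1673), 9 and 101 in the difference (31 and 80), and 100 and 387 in IFNko TGFB1 KO against TGFB KO (324 and 360). The count higher in the difference was 14 with a pseudocount of 1, 68 with 64, 17 with no filter, 50 with the filter at the 60th percentile, 65 with a mean-variance trend and 19 with the replicate block, and the count lower was 43, 144 and 123 with pseudocounts of 1 and 64 and with the trend. Of the 9 genes, 0 were lower in the difference with a pseudocount of 1 or no filter, 3 with a pseudocount of 64, and 2 with the 60th percentile, the mean of probe sets or the trend. IFNko TGFB1 KO against TGFB KO gave 191 genes higher with no filter, and 65 higher and 148 lower with only the arrays compared. Signs turned for the S100a8 difference (-0.038 with the deposited scaling, -0.35 with median centring), the S100a9 difference (-0.29 with median centring), and, in IFNko TGFB1 KO against TGFB KO, S100a8 (-0.16) and S100a9 (-0.057) with median centring. The cause was not tested.

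Leaving out each array gave 1170 to 1375 genes higher and 1029 to 1204 lower in TGFB KO against WT (7 to 9 of the 9 higher), 1169 to 1684 and 1089 to 1848 in IFNko TGFB1 KO against INFko TGFB+ (5 to 7 higher), 7 to 52 and 39 to 108 in the difference (0 to 2 lower), 138 to 324 and 189 to 419 in IFNko TGFB1 KO against TGFB KO (0 to 1 higher, 3 to 4 lower), and 0 to 1 in each direction in INFko TGFB+ against WT. Signs turned within -0.22 to 0.35 for Cxcr2 in IFNko TGFB1 KO against INFko TGFB+, -0.23 to 0.41 for S100a8 and -0.20 to 0.64 for S100a9 in the difference, -0.17 to 0.42 and -0.13 to 0.65 for them in IFNko TGFB1 KO against TGFB KO, and -0.25 to 0.29, -0.35 to 0.33 and -0.34 to 0.030 for S100a8, S100a9 and Csf3r in INFko TGFB+ against WT.

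The replicate numbers were not taken to pair the mice: same-numbered deviations correlated at 0.098, 0.065 and 0.34 in TGFB KO against WT, and at -7.4e-05, -0.055 and -0.0040 in IFNko TGFB1 KO against INFko TGFB+. With the replicate block 8 of the 9 genes were higher in TGFB KO against WT, S100a9 having lost its call (adjusted p = 0.0523) as Anxa1 did (0.0578), and 6 in IFNko TGFB1 KO against INFko TGFB+. Signals near the arrays' low end, as for Cxcl2 and Cxcr2 in WT, limit their fold changes, which a pseudocount of 16 understates.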
